A study of Homo sapiens with 36 samples.

Results

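The LPS response of control THP-1 cells under hypercapnia was measured in 6 of the 36 libraries of the series, 3 from cells at 10% CO2 with LPS and 3 from cells at 10% CO2 without it. The libraries were chosen by their titles, which give the hairpin, the CO2 level and the presence of LPS, and no measured value entered the choice. THP-1 is a human monocytic leukaemia line that grows in suspension and resembles immature blood monocytes. The cells of both groups carried a non-target short hairpin RNA (shNT) delivered by lentiviral particles, so that neither NR4A2 nor NR4A3 was targeted, and both groups were held in buffered DMEM at 10% CO2 for 4 h. LPS (2.5 µg/ml) was added to 1 group for the last 2 h. The series also holds shNT cells at 5% CO2, with and without LPS, and cells with hairpins against NR4A2 or NR4A3. The labels do not say whether the transduced cells were a clone or a pool, nor that replicates came from separate cultures. The study's figure legends give n = 3 individual experiments for the RNA-seq data, without saying which libraries belong to which experiment. The p-values measure the spread between these libraries.

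Lipopolysaccharide (LPS) is the outer membrane glycolipid of Gram-negative bacteria. Monocytes bind it through CD14, MD-2 (LY96) and Toll-like receptor 4 (TLR4), and the adaptors MyD88 and TRIF (TICAM1) pass the signal on to the kinases that release NF-kB and activate the MAP kinases and interferon regulatory factors. A first wave of transcription then encodes cytokines, chemokines and the inhibitors that limit the same pathway, while the NR4A nuclear receptors are immediate-early products of many such stimuli. The comparison addresses how this programme runs when CO2 is raised, which is relevant to lung disease with retained CO2.

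Total counts were 18474128 to 20981878 in the libraries without LPS and 18450090 to 22151327 in those with LPS. Levels are given as length-scaled transcript shares (TPM), computed from the counts and gene lengths, always in the order of replicates 1, 2 and 3. Libraries were scaled by TMM, and fold changes come from edgeR's quasi-likelihood test on 17720 genes, and a gene is called when its Benjamini-Hochberg adjusted p is under 0.05. TPM carry no TMM scaling: with library size alone, the median gene stood at a log2 fold change of -0.23, and after TMM scaling at -0.01, so small fold changes are relative to the median gene and exceed the ratio of the TPM. With 3 libraries against 3, an exact two-sided permutation test cannot go below p = 0.1, so every smaller p rests on the model. Pairs of replicates differed by more than counting noise, with a chi-square per degree of freedom of 7.88 to 25.9. Of 10 monocyte markers, 9 had a mean TPM of 1 or more in each group, with a summed level of 885 to 996 TPM without LPS and 816 to 1047 TPM with LPS. None of the T cell, epithelial, fibroblast or erythroid markers reached a mean of 1 TPM. Among the B cell markers, 3 of 4 did in both groups (summed 7.0 to 9.96 TPM without LPS and 3.38 to 6.23 TPM with LPS), MS4A1 being at 0 in every library without LPS, and among NK cell markers 1 of 3 did, NKG7 (summed 46.3 to 61.8 and 42.6 to 48.3 TPM). Of the endothelial markers, 1 of 3 reached 1 TPM without LPS and 0 with it (summed 1.70 to 2.68 and 0.777 to 1.16 TPM), and the part of these cell types in the results was not tested.

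LPS raised 2675 genes (15.1% of those tested) and lowered 2850 (16.1%) in shNT cells at 10% CO2. By 2-fold or more, 1054 genes were higher (5.95%) and 787 lower (4.44%). The changes upward were the larger in size, with 389 genes raised by 8-fold or more and 28 lowered as much. Many of the largest changes were in rare transcripts: 120 of the 389 genes stayed under 1 CPM (counts scaled to library size) with LPS and 58 had no count in any library without it. Genes raised by 2-fold or more took 8.62% to 9.29% of all counts with LPS and 1.55% to 1.72% without it, and those lowered by 2-fold or more took 0.561% to 0.660% and 1.89% to 2.05%. In 21.3% of the genes tested every library with LPS lay above every library without it, and in 23.2% every one lay below (TMM-scaled CPM), and the genes named for the 10 largest rises and falls were chosen among these. A lack of overlap was thus common, and where it is given for genes below it is a description. In these bulk libraries, fewer cells making an RNA and less RNA per cell cannot be told apart. Scaling by library size only gave 1546 genes higher and 5476 lower, so that 22.0% and not 48.4% of the genes called were higher.

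**Figure D1:**
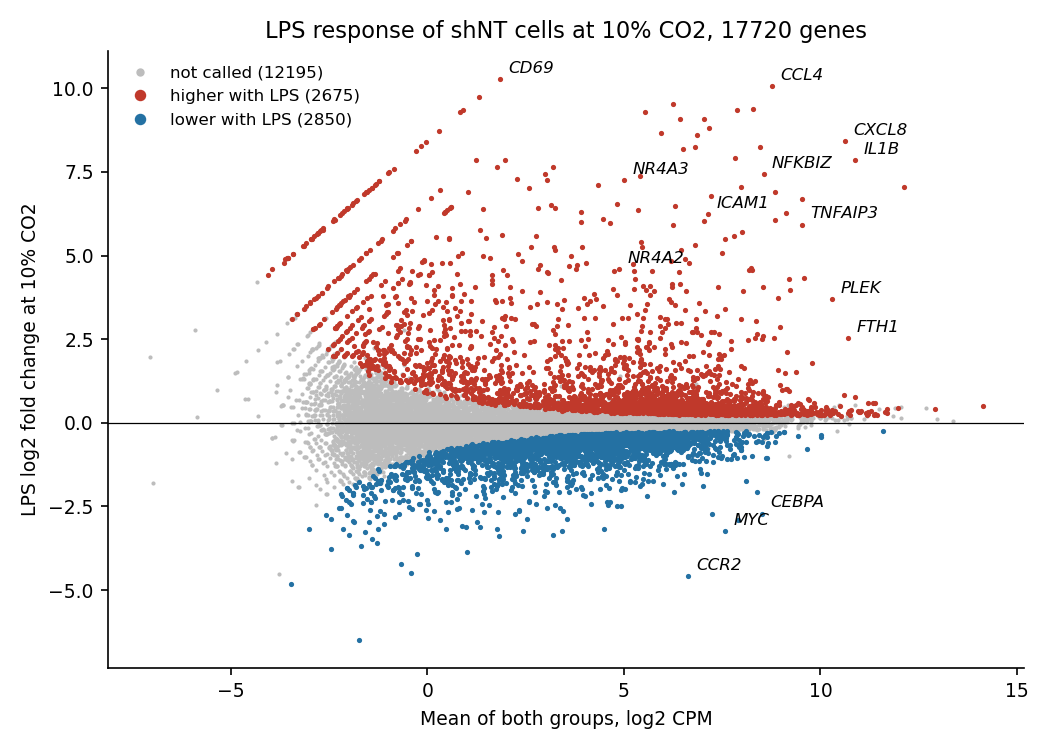
Each point is 1 of the 17720 genes tested, by its mean level in both groups (log2 CPM, horizontal axis) and its LPS log2 fold change at 10% CO2 (vertical axis, TMM scaling), red where called higher (2675), blue where called lower (2850) and grey where not called. The rises reach beyond 10 on the log2 scale (CCL4 at 10.05), and among the named falls CCR2 stands lowest at -4.57.

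Of the genes of the LPS receptor complex, TLR4 rose and its partners were not called, while several adaptors behind it rose. In the list of LPS receptor and adaptor genes, 8 of 18 tested were higher, 1 was lower and 9 were not called. Over all genes tested, 15.1% were higher and 16.1% lower. The median log2 fold change was 0.22 against -0.01 over all genes tested. TLR4 rose from 17.2, 10.9 and 11.7 TPM to 26.2, 16.1 and 25.4 TPM (log2 fold change 1.03, standard error 0.19, adjusted p = 0.00108). CD14, its co-receptor, was not called (log2 fold change -0.33, adjusted p = 0.302), nor was LY96 (log2 fold change -1.07, adjusted p = 0.296). The largest rise was that of IRAK2, a kinase of the myddosome, from 6.78, 4.41 and 5.21 TPM to 182, 148 and 159.9 TPM (log2 fold change 5.17, standard error 0.15, adjusted p = 1.65e-14). TICAM1, the adaptor of the interferon branch, went from 16.9, 15.9 and 20.9 TPM to 97, 75.3 and 81.1 TPM (log2 fold change 2.51, standard error 0.13, adjusted p = 8.31e-11), and the ubiquitin ligase TRAF3 from 34.2, 31.1 and 35.9 TPM to 119, 101 and 114 TPM (log2 fold change 1.99, standard error 0.09, adjusted p = 1.75e-11). For these 3 genes every library with LPS was above every library without, as for 21.3% of all genes tested. TIRAP, which bridges TLR4 and MyD88, was the 1 gene of the list that fell (log2 fold change -0.82, adjusted p = 0.000459). With library size as the only scaling, 6 genes of the list were higher and 3 lower.

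Every NF-kB gene tested rose. All 16 subunits and inhibitors tested were called higher, against 15.1% of all genes tested, and 14 by 2-fold or more, against 5.95%. Their median log2 fold change was 3.12. With library size as the only scaling 14 were called higher and 0 lower. NFKBIZ, an atypical inhibitor that serves as a co-activator of secondary response genes, was at 3.20, 2.89 and 2.88 TPM without LPS and at 470.4, 397 and 408 TPM with it (log2 fold change 7.42, standard error 0.13, adjusted p = 2.82e-17). TNIP3, which binds the deubiquitinase A20, rose from 0.314, 0.344 and 0.265 TPM to 39.5, 35.5 and 31.9 TPM (log2 fold change 7.11, standard error 0.21, adjusted p = 2.11e-14). A20 itself, TNFAIP3, which ends signalling to NF-kB, rose from 23.8, 17.1 and 17.1 TPM to 1128, 828 and 965 TPM (log2 fold change 5.93, standard error 0.16, adjusted p = 5.24e-13). No library of one group overlapped the other for any of these genes, and 21.3% of all genes tested likewise had every library with LPS above. Of the subunits, NFKB2 (log2 fold change 4.62), RELB (log2 fold change 4.05), NFKB1 (log2 fold change 3.72) and REL (log2 fold change 3.59) all rose by more than 8-fold, and NFKBIA, the classical inhibitor, had a log2 fold change of 4.29 and a mean of 1577 TPM with LPS. RELA, the subunit made in unstimulated cells, moved little (log2 fold change 0.31, adjusted p = 0.0228).

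The NR4A receptors, whose depletion is the subject of the series, all rose in these control cells, each called and each without overlap of the groups. NR4A3 was close to absent without LPS, at 0.374, 0.176 and 0.237 TPM, and stood at 30.6, 32.7 and 38.6 TPM with it (log2 fold change 7.26, standard error 0.19, adjusted p = 6.44e-15). NR4A2 rose from 2.38, 1.49 and 3.15 TPM to 44, 46.9 and 51.5 TPM (log2 fold change 4.60, standard error 0.18, adjusted p = 1.13e-12). NR4A1 had the highest level without LPS, 5.04, 4.77 and 6.39 TPM, and the lowest with it, 13, 12.3 and 16 TPM (log2 fold change 1.62, standard error 0.13, adjusted p = 3.7e-08). The order of the 3 genes by TPM thus changed from NR4A1, NR4A2 and NR4A3 without LPS to NR4A2, NR4A3 and NR4A1 with it. With LPS, NR4A2 libraries (lowest 44 TPM) lay above those of NR4A3 (highest 38.6 TPM), and these above those of NR4A1 (highest 16 TPM). The order of NR4A2 and NR4A3 rests on the division by gene length. In counts with LPS, NR4A3 (1065, 1188 and 1560) exceeded NR4A2 (960, 1071 and 1309) in each replicate. Mean CPM with LPS were 64.0 for NR4A3, 56.2 for NR4A2 and 29.9 for NR4A1. In GRCh38 NR4A3 lies at chr9:99821855-99866891, NR4A2 at chr2:156324432-156342348 and NR4A1 at chr12:52022832-52059507.

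Among early-response transcription factors, 14 of 19 were higher and 2 lower, against 15.1% and 16.1% of all genes tested. Their median log2 fold change was 1.55. EGR2 (0.457, 0.703 and 0.497 TPM to 73.8, 72.8 and 81.7 TPM, log2 fold change 7.37, standard error 0.16, adjusted p = 7.47e-16) and EGR3 (0.348, 0.420 and 0.823 TPM to 29.4, 29.4 and 32.2 TPM, log2 fold change 6.09, standard error 0.19, adjusted p = 9.22e-14) are zinc finger factors of the serum response. IER3, an early-response survival factor, rose from 2.24, 1.23 and 1.84 TPM to 150.2, 131 and 132 TPM (log2 fold change 6.53, standard error 0.18, adjusted p = 1.08e-14). The AP-1 members moved unequally: JUN (log2 fold change 3.06), JUNB (log2 fold change 2.70), FOSB (log2 fold change 2.50) and JUND (log2 fold change 1.55) were raised by 2-fold or more, FOS by less (log2 fold change 0.56), and FOSL1 was not called (log2 fold change 0.31, adjusted p = 0.0611). FOSL2 (log2 fold change -1.0, adjusted p = 5.34e-07) and MYC were the 2 that fell.

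**Figure D2:**
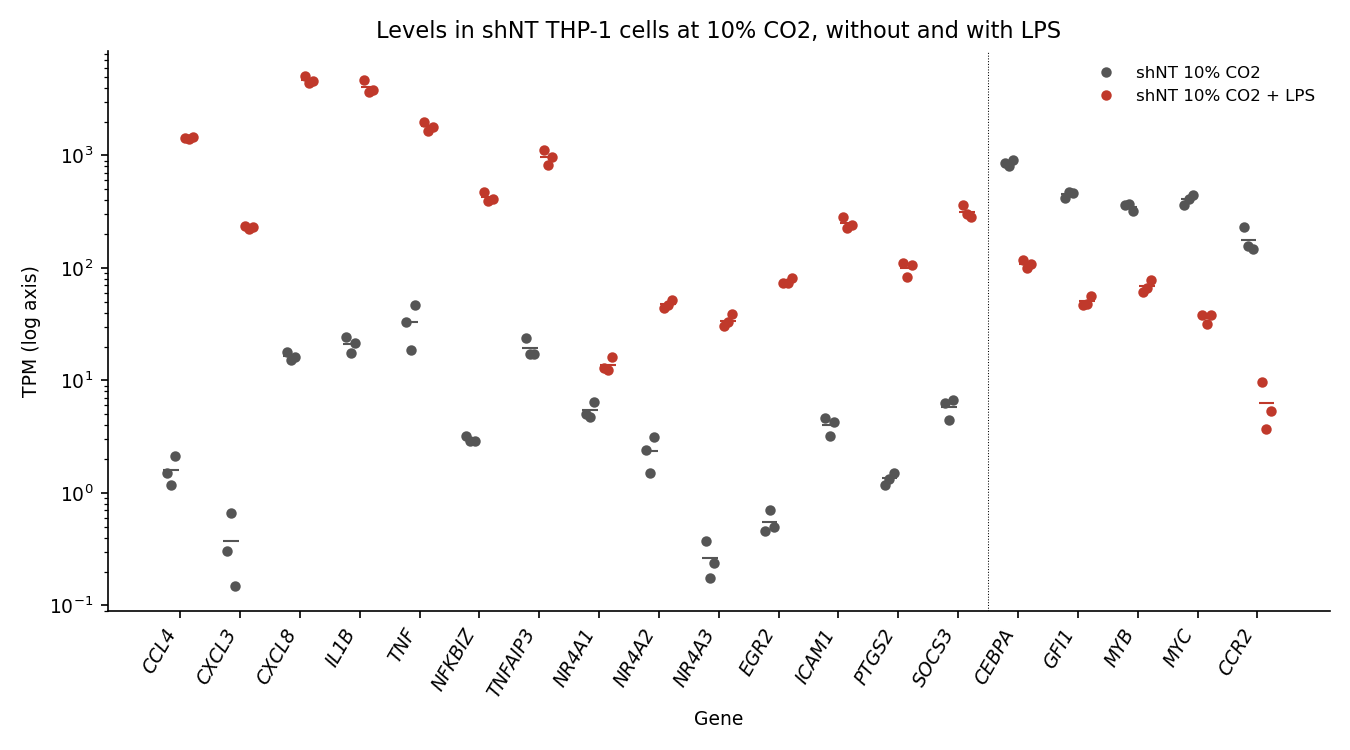
TPM on a log axis of 19 named genes in each of the 3 libraries without LPS (grey) and the 3 with LPS (red) at 10% CO2, with the mean of each group as a line and the genes lowered by LPS to the right of the dotted line. For every gene shown, the 3 red points lie on one side of the 3 grey points.

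Of 20 cytokine genes tested, 15 were higher, 0 lower and 5 not called, and their median log2 fold change was 3.43. Over all genes tested, 15.1% were higher and 16.1% lower. The most abundant cytokine gene was IL1B, the precursor of interleukin-1 beta, at 24.5, 17.4 and 21.7 TPM without LPS and 4659.9, 3669.6 and 3824 TPM with it (log2 fold change 7.85, standard error 0.15, adjusted p = 7.47e-16). IL1A rose from 1.35, 1.74 and 1.10 TPM to 437, 278 and 344 TPM (log2 fold change 8.25, standard error 0.20, adjusted p = 1.77e-14). TNF was at 32.9, 18.6 and 46.7 TPM without LPS and at 1969.8, 1653 and 1795 TPM with it (log2 fold change 6.06, standard error 0.36, adjusted p = 0.000109). In none of these did a library with LPS overlap one without. IL12B, the shared p40 chain of interleukins 12 and 23, rose from 0.122, 0.470 and 0.0603 TPM to 109, 136 and 90.2 TPM (log2 fold change 9.29, standard error 0.36, adjusted p = 7.58e-09). Its partner chains parted: IL23A was called higher (log2 fold change 7.04, mean 1415 TPM with LPS) and IL12A was not called (log2 fold change -1.24, adjusted p = 0.0705). IL6 had no count in any library without LPS and 49, 34 and 31 counts with it, at least 38.6-fold higher when the lower group is set at the floor of 3 counts over its libraries. The anti-inflammatory IL10 stayed rare, at a mean of 0.0597 TPM and 0.400 TPM, although called (log2 fold change 2.81, adjusted p = 0.0344), and the antagonist IL1RN was not called (log2 fold change 0.30, adjusted p = 0.146).

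Chemokines had the largest median of the 20 lists described, a log2 fold change of 7.90 over 15 genes. Of these, 13 were higher and 0 lower, against 15.1% and 16.1% of all genes tested. Both counts of the list were the same with library size as the only scaling. CXCL8, the neutrophil attractant interleukin-8, had the highest mean TPM of the list with LPS, at 18, 15.2 and 16.2 TPM without LPS and 5054, 4433 and 4537 TPM with it (log2 fold change 8.42, standard error 0.12, adjusted p = 9.47e-18). CCL4, which attracts monocytes and T cells, went from 1.49, 1.19 and 2.13 TPM to 1435, 1404 and 1445 TPM (log2 fold change 10.05, standard error 0.15, adjusted p = 9.82e-18). CCL4L2, a near-identical copy, showed 1.81, 3.31 and 2.98 TPM and 1516, 1359 and 1583 TPM (log2 fold change 9.37, standard error 0.15, adjusted p = 2.55e-17), and reads of this pair may have been split between both genes or left uncounted, so neither value is certain. Both were named by a rule that required libraries without overlap. CXCL3 (0.304, 0.668 and 0.150 TPM to 234, 222 and 231 TPM, log2 fold change 9.53, standard error 0.20, adjusted p = 5.16e-16) and CXCL1 (2.21, 2.14 and 1.67 TPM to 857, 692 and 681 TPM, log2 fold change 8.80, standard error 0.17, adjusted p = 1.48e-16) are ligands of CXCR2. CXCL10, the interferon-induced ligand of CXCR3, varied more between replicates, from 0.574, 2.84 and 1.70 TPM to 504, 951 and 787 TPM (log2 fold change 9.07, standard error 0.51, adjusted p = 7.63e-05), yet its lowest library with LPS was far above its highest without. CCL5 was already high without LPS (493 TPM) and rose least of those called (log2 fold change 0.74, adjusted p = 3.57e-06), while CCL22 and CXCL16 were not called. Of the 13 chemokine genes called, 7 lie on chromosome 4 within 2.30 megabases (73740506 to 76041415) and 5 on chromosome 17 within 1.85 megabases (34255218 to 36105621).

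Promoters of these genes are shown because NF-kB is the factor through which LPS is known to act on them. The letters GGANNTTCC, a core of the NF-kB recognition sequence, were searched on both strands in the 250 bases before the RefSeq start of each gene (GRCh38.p14). They were found in 7 of 11 chemokine promoters in the table (63.6%), 5 of 14 NF-kB gene promoters (35.7%) and 2 of 14 cytokine promoters (14.3%), against 1060 of all 27305 promoters of the same length (3.88%) and 471 of the 12091 that matched a gene tested (3.90%). Among genes raised by 2-fold or more, 63 of 658 promoters held them (9.57%), among those raised by 8-fold or more 32 of 233 (13.7%), and among those lowered by 2-fold or more 16 of 508 (3.15%). A match is a description of these letters in this window and not a site. Below are 6 of the named chemokine, cytokine and NF-kB genes with a match, in the order of their LPS fold change, each running 5′ to 3′ on the strand of its gene with the match in capitals. CXCL3 lies on the minus strand (chr4:74038690-74038939, match starting 78 bases before the start), CXCL10 on the minus strand (chr4:76023498-76023747, 176 bases), CXCL1 on the plus strand (chr4:73869143-73869392, 78 bases), CXCL8 on the plus strand (chr4:73740319-73740568, 91 bases), IL6 on the plus strand (chr7:22726950-22727199, 72 bases) and NFKBIZ on the plus strand (chr3:101827740-101827989, 222 bases).
CXCL3: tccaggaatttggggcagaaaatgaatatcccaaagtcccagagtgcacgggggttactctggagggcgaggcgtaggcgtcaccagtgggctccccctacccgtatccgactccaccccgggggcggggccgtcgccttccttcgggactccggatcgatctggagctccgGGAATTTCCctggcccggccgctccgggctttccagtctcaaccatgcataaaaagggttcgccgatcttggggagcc
CXCL10: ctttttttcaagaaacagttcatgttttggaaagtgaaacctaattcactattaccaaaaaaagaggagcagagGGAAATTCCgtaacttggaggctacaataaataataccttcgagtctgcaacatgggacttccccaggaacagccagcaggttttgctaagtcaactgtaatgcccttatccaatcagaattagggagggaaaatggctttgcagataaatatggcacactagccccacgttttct
CXCL1: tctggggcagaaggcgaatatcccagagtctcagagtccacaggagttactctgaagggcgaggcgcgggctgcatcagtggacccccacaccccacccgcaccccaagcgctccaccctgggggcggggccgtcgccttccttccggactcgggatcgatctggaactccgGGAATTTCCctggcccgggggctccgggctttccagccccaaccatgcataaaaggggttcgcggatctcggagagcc
CXCL8: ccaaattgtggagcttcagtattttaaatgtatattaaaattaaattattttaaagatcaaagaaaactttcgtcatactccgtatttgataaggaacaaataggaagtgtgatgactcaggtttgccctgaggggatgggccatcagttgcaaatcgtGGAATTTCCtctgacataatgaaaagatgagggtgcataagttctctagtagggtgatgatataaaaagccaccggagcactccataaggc
IL6: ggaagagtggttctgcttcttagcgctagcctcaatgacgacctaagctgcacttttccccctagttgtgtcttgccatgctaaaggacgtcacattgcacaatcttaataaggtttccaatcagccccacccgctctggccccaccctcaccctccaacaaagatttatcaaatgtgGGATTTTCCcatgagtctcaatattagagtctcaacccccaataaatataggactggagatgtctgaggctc
NFKBIZ: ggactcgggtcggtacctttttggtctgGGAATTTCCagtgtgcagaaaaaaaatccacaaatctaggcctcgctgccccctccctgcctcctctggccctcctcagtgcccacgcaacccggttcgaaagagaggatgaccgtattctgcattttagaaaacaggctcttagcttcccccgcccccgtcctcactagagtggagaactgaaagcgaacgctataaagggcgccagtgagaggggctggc

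The matches of CXCL3, CXCL1, CXCL8 and NFKBIZ read the same letters, and those of CXCL3 and CXCL1 stand at the same distance from the start. IL12B, IL1A, IL1B, TNF and TNIP3 had no match in this window, although their log2 fold changes were between 6.06 and 9.29, which says only that these letters are not in these 250 bases.

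Other genes with the largest rises were of several kinds. CD69, an activation marker of leukocytes, had no count in any library without LPS and 104, 143 and 183 counts with it, at least 146-fold higher against the floor of 3 counts over the group. TNFAIP6, a secreted hyaluronan-binding protein, rose from 1.39, 2.58 and 1.58 TPM to 933, 1121 and 915 TPM (log2 fold change 9.35, standard error 0.20, adjusted p = 1.93e-15). SHROOM3, an actin-binding protein known from epithelia, rose from 0.0641, 0.0704 and 0.152 TPM to 44.5, 42.6 and 43.9 TPM (log2 fold change 9.07, standard error 0.18, adjusted p = 2.11e-16). The rule that named these 3 required libraries without overlap. MIR3142HG, a long non-coding RNA, went from 0.440, 0.564 and 0.579 TPM to 171, 197 and 166 TPM (log2 fold change 8.65, standard error 0.19, adjusted p = 7.47e-16). It spans chr5:160468268-160487426 on the plus strand, and the hairpin of miR-146a, which is known to limit IRAK1 and TRAF6, lies inside it at chr5:160485352-160485450. The more abundant arm is shown with its seed (bases 2 to 8) in capitals. Its level was not measured, since the libraries hold polyadenylated RNA.
hsa-miR-146a-5p: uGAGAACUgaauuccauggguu

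Of the abundant transcripts that rose, FTH1, the heavy chain of the iron store ferritin, went from 1139, 737 and 1018 TPM to 4821, 4507 and 4501 TPM (log2 fold change 2.53, standard error 0.13, adjusted p = 2.73e-09). PTX3, a secreted pattern recognition pentraxin, rose from 26.9, 28.9 and 32.6 TPM to 2304, 2758 and 2544 TPM (log2 fold change 6.70, standard error 0.13, adjusted p = 1.13e-16). PLEK, the protein kinase C substrate pleckstrin, rose from 219, 211 and 219 TPM to 2429, 2297 and 2238 TPM (log2 fold change 3.70, standard error 0.09, adjusted p = 2.64e-15). In all 3 the libraries with LPS lay above those without.

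Genes that destabilise mRNA or dampen signalling moved both ways, with a median log2 fold change of 0.84. Of 19 tested, 12 were higher and 5 lower, against 15.1% and 16.1% of all genes tested. SOCS3, which inhibits JAK-STAT signalling, rose from 6.30, 4.40 and 6.70 TPM to 361, 303 and 285 TPM (log2 fold change 6.04, standard error 0.16, adjusted p = 7.74e-15). ZC3H12A, the nuclease regnase-1 that degrades cytokine mRNAs, rose from 10.3, 10.2 and 17.3 TPM to 531, 529 and 557 TPM (log2 fold change 5.69, standard error 0.17, adjusted p = 1.02e-11). DUSP8, a MAP kinase phosphatase, rose from 2.41, 2.13 and 2.49 TPM to 55.3, 47.1 and 53.4 TPM (log2 fold change 4.74, standard error 0.13, adjusted p = 1.08e-14). Each of these was without overlap between the groups. DUSP16 (log2 fold change 3.14) and DUSP1 (log2 fold change 2.92) rose too, and DUSP6 fell (log2 fold change -0.73, adjusted p = 0.000916). The members of the SOCS family parted: SOCS1 (log2 fold change -1.52), SOCS2 (log2 fold change -0.90) and CISH (log2 fold change -2.43) were all called lower. ZFP36L2, an mRNA-destabilising protein, dropped from 453, 361 and 427 TPM to 107, 100.1 and 102 TPM (log2 fold change -1.73, standard error 0.10, adjusted p = 2.69e-10), while its relative ZFP36 (tristetraprolin) rose (log2 fold change 0.84, adjusted p = 8.5e-06).

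The interferon branch was raised in part. Of 24 genes, 16 were higher, 0 lower and 8 not called, with a median log2 fold change of 0.70. Over all genes tested, 15.1% were higher and 16.1% lower. With library size as the only scaling 13 of the 24 were higher and 2 lower. IFNB1, the interferon-beta gene itself, rested on few reads, with 3, 0 and 1 counts without LPS and 12, 19 and 20 with it (log2 fold change 3.79, standard error 0.65, adjusted p = 0.000256). GBP2, a guanylate-binding protein, rose from 1.77, 1.06 and 1.41 TPM to 26.5, 27.5 and 27.8 TPM (log2 fold change 4.54, standard error 0.16, adjusted p = 2.61e-13). IFIT2, an interferon-induced antiviral protein, rose from 5.56, 7.99 and 6.09 TPM to 17.4, 22 and 26.6 TPM (log2 fold change 2.02, standard error 0.17, adjusted p = 5.26e-08). The antiviral genes MX1 (log2 fold change 0.19, adjusted p = 0.342), RSAD2 (log2 fold change -0.50, adjusted p = 0.0568) and USP18 (log2 fold change -0.25, adjusted p = 0.421) were not called at 2 h of LPS.

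Inflammasomes are the complexes that process interleukin-1 beta. Of their genes 2 of 13 were higher, a share near the 15.1% of all genes tested. Another 5 were lower, against 16.1% of all genes tested, and the median log2 fold change was -0.21. NLRP3, the sensor of the best known inflammasome, fell from 84.2, 75.3 and 88.2 TPM to 42.9, 33.2 and 42.7 TPM (log2 fold change -0.79, standard error 0.10, adjusted p = 1.26e-05). NLRC4, the sensor of bacterial flagellin, fell from 3.87, 1.94 and 1.84 TPM to 0.903, 0.192 and 0.603 TPM (log2 fold change -1.91, standard error 0.41, adjusted p = 0.0023). Pyrin, MEFV, stood at 28.8, 22.7 and 21.5 TPM and 31.6, 24.3 and 29.5 TPM (log2 fold change 0.49, standard error 0.13, adjusted p = 0.00625), and was not called with library size as the only scaling (log2 fold change 0.27, adjusted p = 0.0941), under which 0 genes of the list were higher and 8 lower. CASP1, which cleaves pro-interleukin-1 beta, was not called (log2 fold change -0.08, adjusted p = 0.597).

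In the prostaglandin and leukotriene list 5 of 13 genes were higher and 0 lower, against 15.1% and 16.1% of all genes tested. With library size as the only scaling, 3 of the list were higher and 4 lower. PTGS2, the inducible cyclooxygenase COX-2, rose from 1.19, 1.34 and 1.52 TPM to 110.1, 83.3 and 107 TPM (log2 fold change 6.48, standard error 0.14, adjusted p = 7.47e-16). The prostaglandin E2 receptors PTGER4, from 117, 109 and 104 TPM to 568, 448 and 532 TPM (log2 fold change 2.50, standard error 0.10, adjusted p = 1.18e-12), and PTGER2, from 4 counts in all without LPS to 60, 37 and 75 with it (log2 fold change 5.52, standard error 0.55, adjusted p = 5.48e-07), also rose. The constitutive cyclooxygenase PTGS1 (log2 fold change -0.20, adjusted p = 0.211) and the lipoxygenase ALOX5 (log2 fold change -0.29, adjusted p = 0.0848) were not called.

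Survival genes were higher in 11 of 15 cases and lower in 0, against 15.1% and 16.1% of all genes tested. Their median log2 fold change was 1.02. BIRC3, an inhibitor of apoptosis that also regulates NF-kB signalling, rose from 1.30, 0.986 and 0.864 TPM to 39.9, 36.3 and 35.5 TPM (log2 fold change 5.42, standard error 0.15, adjusted p = 1.79e-14). BCL2A1, an anti-apoptotic BCL2 relative, rose from 9.14, 6.63 and 9.33 TPM to 280.3, 274 and 235 TPM (log2 fold change 5.24, standard error 0.16, adjusted p = 4.09e-14), and the adaptor TRAF1 from 2.12, 1.55 and 2.19 TPM to 44.2, 30.4 and 38.4 TPM (log2 fold change 4.53, standard error 0.16, adjusted p = 3.32e-13). For all 3 the groups were apart. BCL2 (log2 fold change -0.05) and XIAP (log2 fold change 0.08) were not called (adjusted p = 0.779 and 0.69).

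Surface and matrix genes gave 12 of 17 higher and 1 lower, against 15.1% and 16.1% of all genes tested. The 1 lower was the plasminogen activator inhibitor SERPINB2, and the median log2 fold change of the list was 2.20. ICAM1, the ligand of leukocyte integrins, rose from 4.60, 3.20 and 4.27 TPM to 286, 226 and 239 TPM (log2 fold change 6.23, standard error 0.15, adjusted p = 1.33e-15). SERPINE2, a protease inhibitor, rose from 2.37, 2.58 and 2.43 TPM to 74.9, 89.9 and 79.8 TPM (log2 fold change 5.33, standard error 0.13, adjusted p = 2.73e-15). Both were without overlap. VCAM1, an adhesion molecule best known from endothelium, was rare, with 2 counts over the libraries without LPS and 162 with it, a ratio of 82.3 (95% counting interval 22.4 to 685). Of the co-stimulation and antigen presentation genes, 13 of 18 were higher and 1 lower, against the same 15.1% and 16.1%. CD83, a marker of dendritic cell maturation, rose from 14.5, 11.9 and 13.5 TPM to 519, 492 and 471 TPM (log2 fold change 5.49, standard error 0.12, adjusted p = 5.5e-16) and SLAMF7, a receptor of the SLAM family, from 0.454, 0.383 and 0.448 TPM to 11.2, 16.4 and 10.7 TPM (log2 fold change 5.16, standard error 0.26, adjusted p = 7.32e-11). In both genes every library with LPS lay higher. CD48, another SLAM family receptor, had 2 counts without LPS and 67 with it, a ratio of 34.0 (95% counting interval 9.06 to 287). CD40 (log2 fold change 3.51) and CD80 (log2 fold change 4.13) rose, and CD86 was not called (log2 fold change -0.66, adjusted p = 0.0865). Intervals of such counts cover counting error only.

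Metabolic genes of activated macrophages were mixed, with 8 of 17 higher and 2 lower, against 15.1% and 16.1% of all genes tested. SOD2 was not matched by symbol and is not in these counts. With library size as the only scaling, 8 were higher and 6 lower. ACOD1, which makes itaconate, had no count without LPS and 88, 94 and 113 counts with it, at least 99.9-fold higher against the floor of 3 counts over the group. SLC2A6, a hexose transporter of the lysosome, rose from 8.77, 10.0 and 12.6 TPM to 409, 427 and 403 TPM (log2 fold change 5.58, standard error 0.13, adjusted p = 1.61e-15). GCH1, the first enzyme of tetrahydrobiopterin synthesis, rose from 6.81, 6.90 and 6.66 TPM to 153, 178 and 152 TPM (log2 fold change 4.85, standard error 0.13, adjusted p = 1.16e-14). All libraries with LPS were above all without for these 3 genes. The plasma membrane glucose transporter SLC2A1 fell (log2 fold change -0.72, adjusted p = 6.44e-06), IDH1 fell (log2 fold change -1.42, adjusted p = 2.08e-08), and LDHA was not called (log2 fold change 0.08, adjusted p = 0.543).

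Receptors and differentiation factors of monocytes moved both ways. In the list of monocyte receptors and differentiation factors, 11 of 28 genes were lower and 7 higher, against 16.1% and 15.1% of all genes tested. Of the 11, 9 fell by 2-fold or more, against 4.44% of all genes tested. The median log2 fold change was -0.30. With library size as the only scaling 14 were lower and 2 higher, and without 10% CO2 replicate 2 the higher count was 3. CCR2, the receptor that brings monocytes out of the marrow, fell the most of all genes named, from 233, 156 and 146 TPM to 9.69, 3.73 and 5.31 TPM (log2 fold change -4.57, standard error 0.40, adjusted p = 0.000677). CEBPA, a master factor of the granulocyte-monocyte lineage, fell from 853, 797 and 917 TPM to 117, 99.7 and 107 TPM (log2 fold change -2.71, standard error 0.09, adjusted p = 2.81e-13). GFI1, a transcriptional repressor of early myeloid cells, fell from 416, 475 and 464 TPM to 46.7, 47.5 and 56.7 TPM (log2 fold change -2.90, standard error 0.10, adjusted p = 2.2e-13). CEBPA libraries did not overlap between the groups, and CCR2 and GFI1 were named by a rule that required this. MYB, a progenitor factor, fell from 363, 366 and 320.0 TPM to 60.9, 66 and 78.8 TPM (log2 fold change -2.08, standard error 0.10, adjusted p = 3.32e-11), and MYC, a driver of growth, from 364, 411 and 444 TPM to 37.9, 31.7 and 38.2 TPM (log2 fold change -3.23, standard error 0.10, adjusted p = 1.01e-13). IRF2BP2, a partner of interferon regulatory factor 2, fell from 435, 387 and 397 TPM to 158, 162 and 172 TPM (log2 fold change -1.04, standard error 0.09, adjusted p = 4.72e-08). CX3CR1 (log2 fold change -1.97), CXCR2 (log2 fold change -2.07) and CEBPE (log2 fold change -2.56) were lower too, whereas SPI1 (PU.1) rose (log2 fold change 0.56, adjusted p = 0.000206).

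Among the 10 genes with the lowest log2 fold change under the naming rule, CCR2, MYC and GFI1 have been described. NFE2, a factor of the erythroid and megakaryocyte lineages, fell from 23, 21.1 and 27.5 TPM to 2.94, 1.20 and 1.71 TPM (log2 fold change -3.35, standard error 0.22, adjusted p = 2.94e-09). DLX3, a homeobox factor, fell from 7.15, 6.89 and 11.2 TPM to 0.803, 0.384 and 0.806 TPM (log2 fold change -3.38, standard error 0.29, adjusted p = 9.54e-08). Libraries without overlap were required for naming them. INKA1, an inhibitor of the kinase PAK4, fell from 23.7, 29.2 and 45.6 TPM to 2.62, 2.17 and 3.76 TPM (log2 fold change -3.24, standard error 0.28, adjusted p = 8.57e-08), and the glycosyltransferase B3GNT8 from 32.8, 34.7 and 42.9 TPM to 3.01, 3.34 and 3.33 TPM (log2 fold change -3.23, standard error 0.17, adjusted p = 1.2e-10). C16orf54, IL16 and the Wnt ligand WNT6 had log2 fold changes of -3.17, -3.17 and -2.88.

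**Figure D3:**
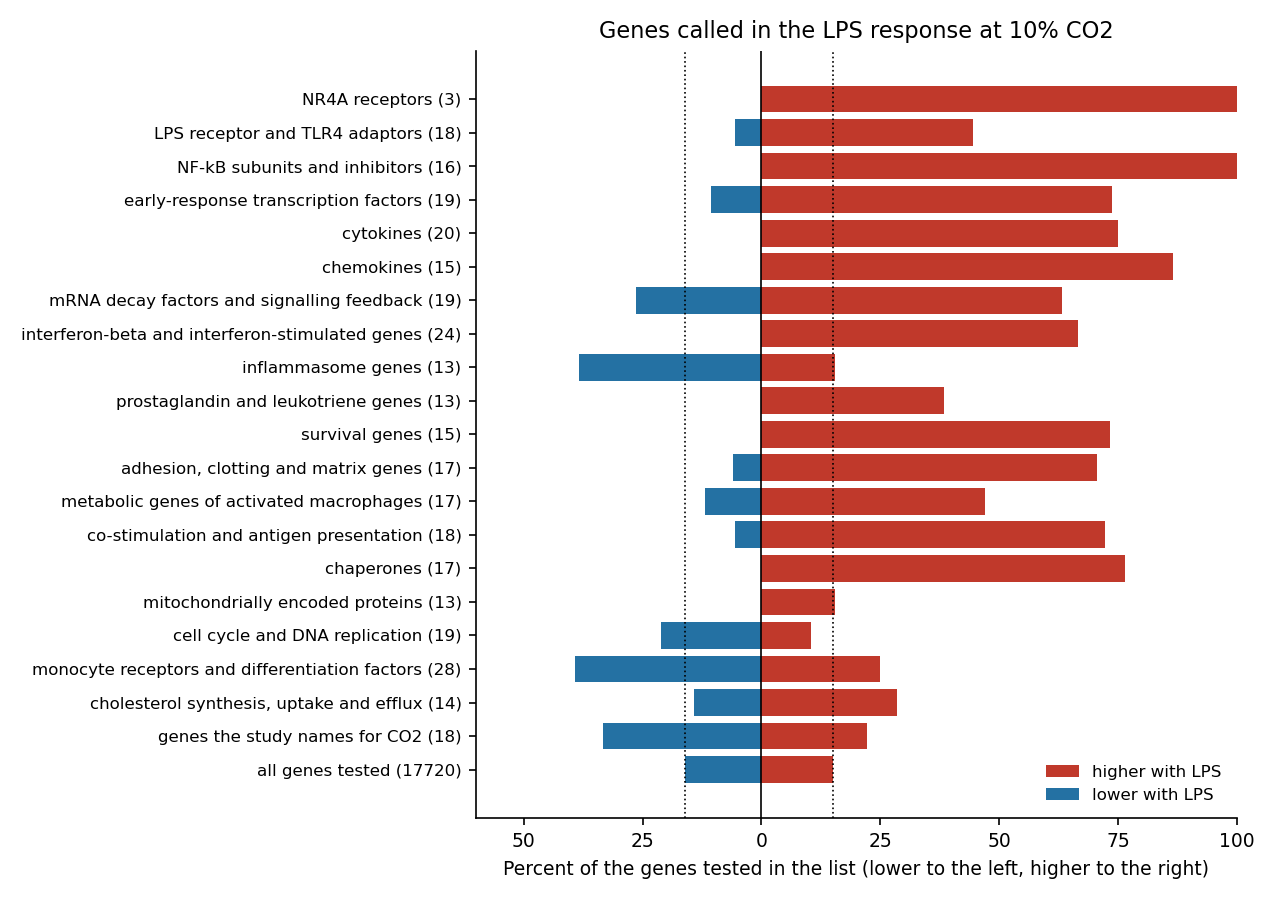
Percent of the genes tested in each list (number in brackets) that were called higher (red, to the right) or lower (blue, to the left) with LPS at 10% CO2 after TMM scaling, with the shares over all genes tested as dotted lines (15.1% and 16.1%). NR4A and NF-kB genes reach 100% higher, and with library size as the only scaling the higher bars of the inflammasome and mitochondrial lists are empty.

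The remaining lists cover protein folding, respiration, division and sterols. Of 17 chaperones, 13 were higher and 0 lower, against 15.1% and 16.1% of all genes tested. By 2-fold or more 2 were higher, against 5.95%. With library size as the only scaling 9 were higher. The list gave 8 without 10% CO2 replicate 3. DNAJA1, a co-chaperone of HSP70, rose from 471, 504 and 363 TPM to 773, 916 and 706 TPM (log2 fold change 1.12, standard error 0.15, adjusted p = 0.000209), DNAJB6, another co-chaperone, from 28.7, 28.8 and 26.2 TPM to 45.6, 47.6 and 41.6 TPM (log2 fold change 0.97, standard error 0.10, adjusted p = 1.18e-06), and the heat shock protein HSPA1B from 55.2, 57.5 and 39.3 TPM to 82.2, 113 and 76.1 TPM (log2 fold change 1.12, standard error 0.21, adjusted p = 0.00295). HSPA1B shares nearly all its sequence with HSPA1A, and reads may have been split between them. Of 13 mitochondrially encoded mRNAs, 2 were called higher, a share near the 15.1% of all genes tested, MT-ND3 (log2 fold change 0.35, adjusted p = 0.00916) and MT-CO2 (log2 fold change 0.35, adjusted p = 0.0286), and the median of the 13 was 0.48. All 13 were higher with the replicate number as a block and 0 with library size as the only scaling. The count was 1 without any one of the 10% CO2 libraries. Leaving out 10% CO2 + LPS replicate 2 gave 0, and leaving out replicate 3 of that group gave 5. TPM of MT-CO2 overlapped between the groups, at 11302, 12358 and 12680.1 without LPS and 11685, 14842 and 11587 with it.

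Of the cell cycle genes, 2 of 19 were higher and 4 lower, near the shares over all genes tested. CCNE2, a cyclin of the entry into S phase, rose from 21.3, 21.3 and 19 TPM to 43.5, 54.9 and 47.9 TPM (log2 fold change 1.53, standard error 0.12, adjusted p = 3.98e-08), and the mitotic kinase CDK1 rose by less (log2 fold change 0.72, adjusted p = 1.09e-05). CDT1, a replication licensing factor, was lower (log2 fold change -0.57, adjusted p = 0.0175) with libraries that overlapped between the groups, and the call was lost without 10% CO2 replicate 2 or 3 (adjusted p = 0.0553 and 0.135). The lower count was 1 without 10% CO2 replicate 2 or 10% CO2 + LPS replicate 2. It was 2 when 10% CO2 replicate 3 or 10% CO2 + LPS replicate 1 was left out. Cholesterol genes gave 4 of 14 higher and 2 lower, against 15.1% and 16.1% of all genes tested, the lower share being near that. With library size as the only scaling 2 were higher and 4 lower. INSIG1, which retains the sterol sensor SCAP in the endoplasmic reticulum (log2 fold change 0.69, adjusted p = 6.32e-05), and HMGCS1, an enzyme of the pathway (log2 fold change 0.64, adjusted p = 6.75e-05), were the largest rises, and MYLIP, which degrades the LDL receptor, fell (log2 fold change -0.86, adjusted p = 2.43e-05). The higher count was 2 without 10% CO2 replicate 2 or 10% CO2 + LPS replicate 3.

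A last list held the genes that the study names as changed by 10% CO2, which were chosen on these samples and are no independent evidence of a direction. LPS at 10% CO2 raised 4 of its 18 genes and lowered 6, against 15.1% and 16.1% of all genes tested. With library size as the only scaling it raised 2 and lowered 8. SLC16A9, a monocarboxylate transporter family member, rose from 3.16, 4.01 and 2.41 TPM to 7.75, 11.7 and 10.3 TPM (log2 fold change 1.92, standard error 0.21, adjusted p = 1.69e-06) and SLC39A8, a zinc transporter, from 51.9, 49.3 and 41.4 TPM to 104, 114 and 107 TPM (log2 fold change 1.47, standard error 0.11, adjusted p = 1.15e-08). SLC6A6, the taurine transporter, was lower (log2 fold change -0.93, adjusted p = 0.0402), which was lost without 10% CO2 replicate 1 or 3 or 10% CO2 + LPS replicate 3 (adjusted p = 0.174, 0.176 and 0.114).

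The same comparison in shNT cells at 5% CO2, on 6 other libraries, called 1993 genes higher (11.2%) and 2059 lower (11.6%). Of the genes raised at 10% CO2, 65.1% were also raised at 5%, and of those raised at 5%, 87.4% were also raised at 10%. For the lowered genes the shares were 59.1% and 81.7%, and no gene was called in opposite directions. Among the 933 genes called higher at 10% CO2 and not called at 5%, 893 had a positive log2 fold change at 5%. Among the 1167 called lower at 10% and not called at 5%, 1120 had a negative one. Genes raised by 2-fold or more at 10% CO2 had a median log2 fold change of 2.35 there and 1.90 at 5%, and those lowered by 2-fold or more -1.38 and -1.0. These genes were chosen on their 10% values, so the medians are a description, with no test. At 10% and 5% CO2, the median log2 fold changes of the lists were 3.12 and 2.51 for NF-kB genes, 3.43 and 2.43 for cytokines, 7.90 and 7.49 for chemokines, 0.70 and 0.51 for interferon genes, 1.02 at both for survival genes, and 0.84 and 1.02 for mRNA decay and feedback genes. The median was higher at 10% CO2 in 17 of the 20 lists and lower in 3, which were mRNA decay and feedback, cell cycle (-0.10 and -0.04) and cholesterol genes (-0.05 and 0.06). Some of the 17 were nearly equal at both levels. These include prostaglandin (0.2422 and 0.2419), inflammasome (-0.213 and -0.218), survival (1.021 and 1.015) and co-stimulation genes (0.630 and 0.621). Taken gene by gene, the difference had a smaller median of 0.24 for NF-kB genes, 0.36 for cytokines and 0.34 for chemokines, against -0.01 over all genes tested, and it was positive in 14 lists and negative in 6. These medians are a description, with no test.

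**Figure D4:**
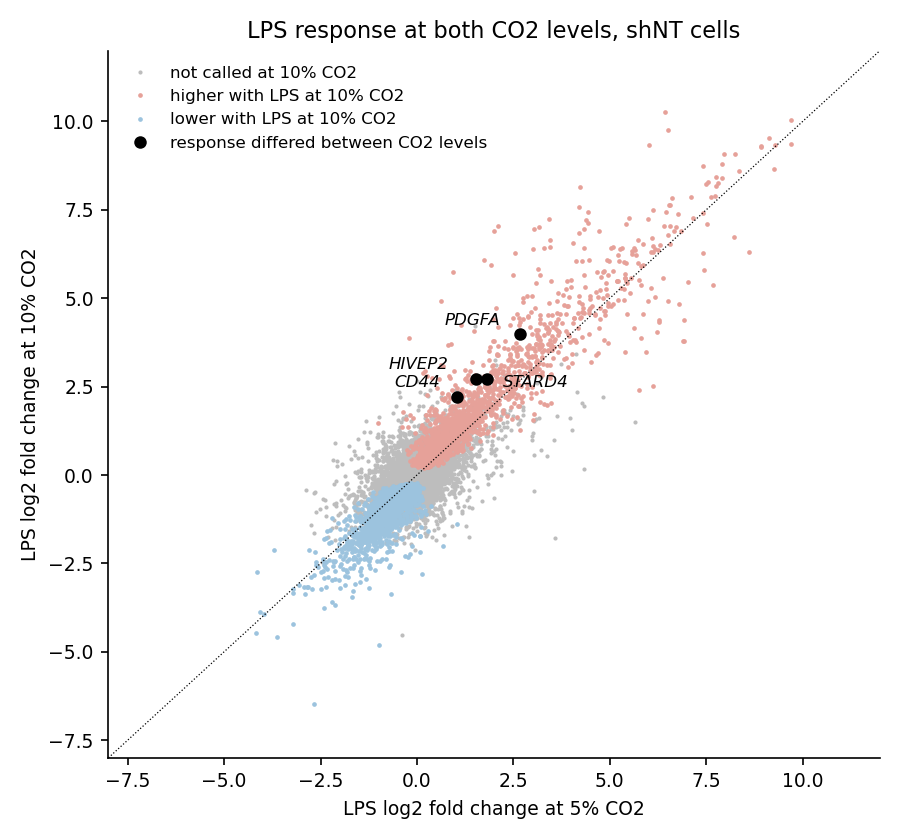
LPS log2 fold change of each of the 17720 genes tested in shNT cells at 5% CO2 (horizontal) and at 10% CO2 (vertical), coloured by the call at 10% CO2, with the line of equal response dotted. The 4 genes whose response differed between CO2 levels (black) lie above that line.

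Whether the response itself differed was tested as an interaction over the 12 shNT libraries. It was larger at 10% CO2 for 4 genes (0.0226%) and smaller for 0 (0%), while 1024 genes (5.78%) had an unadjusted p under 0.05, 554 of them with a positive and 470 with a negative difference. DESeq2 called 51 larger and 2 smaller, edgeR with no filter 74 and 34, and edgeR with the replicate number as a block 13 and 0. The number depended on single libraries: 35 higher and 2 lower were called without 5% CO2 + LPS replicate 3, 26 and 1 without 10% CO2 replicate 1, and 2 higher without replicate 3 of the 10% CO2 + LPS group. There was 1 higher and 0 lower without any one of 5% CO2 replicates 1, 2 and 3, 5% CO2 + LPS replicates 1 and 2, 10% CO2 replicates 2 and 3, or 10% CO2 + LPS replicate 2.

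HIVEP2, a zinc finger protein that binds kappa-B-like enhancers, stood at 16, 16 and 18.2 TPM at 5% CO2 and 41.6, 36.5 and 46.4 TPM at 5% CO2 + LPS, and at 12.6, 10.2 and 11.7 TPM at 10% CO2 and 62.1, 58.1 and 66.3 TPM at 10% CO2 + LPS. It was lower at 10% than at 5% CO2 without LPS and higher with it in every library. Its response was larger at 10% CO2 by 1.17 on the log2 scale (standard error 0.14, edgeR, adjusted p = 0.00217). HIVEP2 was called in 18 of 19 settings and lost in 1 fit to all 36 libraries (adjusted p = 0.755), where 0 genes were called in either direction and 890 had an unadjusted p under 0.05.

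PDGFA, a growth factor chain, stood at 5.71, 4.46 and 5.18 TPM at 5% CO2, 24.6, 25.7 and 33 TPM at 5% CO2 + LPS, 2.93, 2.72 and 3.33 TPM at 10% CO2 and 35.1, 42.8 and 40.7 TPM at 10% CO2 + LPS, a difference of 1.33 on the log2 scale (standard error 0.22, edgeR, adjusted p = 0.0434). For CD44, the hyaluronan receptor, the levels were 50.8, 41.8 and 41.7 TPM, 84.7, 70.3 and 81.1 TPM, 34.2, 27.4 and 26.8 TPM and 119.7, 118 and 98.5 TPM in the same order (difference 1.16, standard error 0.18, edgeR, adjusted p = 0.0434). STARD4, a cholesterol transfer protein, had 13.4, 11.9 and 14.3 TPM, 37.2, 39.4 and 41.8 TPM, 9.35, 9.09 and 9.73 TPM and 45.1, 56.9 and 51.5 TPM (difference 0.91, standard error 0.15, edgeR, adjusted p = 0.0434). All 3 had the same arrangement as HIVEP2, and none overlapped. The 10% CO2 libraries lay below those at 5% without LPS and above them with LPS. These genes were chosen by the interaction test on the same 12 libraries, so the arrangement is no further support for their calls. PDGFA and STARD4 were also not called with library size as the only scaling (adjusted p = 0.0571 and 0.0929). PDGFA, CD44 and STARD4 were called in 8, 9 and 8 of 19 settings, and each lost its call in 9 of the 12 fits that left out 1 library and in 1 fit to all 36 libraries, with adjusted p up to 0.755, 0.515 and 0.237.

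NR4A3 had a positive difference that was not called, 1.27 on the log2 scale (standard error 0.30, edgeR, adjusted p = 0.215). Its levels with LPS were 30.9, 32.3 and 31.9 TPM at 5% CO2 and overlapped with those at 10%, while its levels without LPS were 0.556, 0.693 and 0.512 TPM at 5% CO2 and lower in each library at 10%. In the edgeR test given above no gene had a called smaller response at 10% CO2. The 3 with the smallest unadjusted p in that direction were the selectin ligand SELPLG (difference -0.85, edgeR, adjusted p = 0.153), the lysosomal phospholipase PLA2G15 (difference -0.70, edgeR, adjusted p = 0.166) and the kinase PAK6 (difference -1.85, edgeR, adjusted p = 0.224), which were not called in that test. SELPLG was called with DESeq2 (adjusted p = 0.0132), with edgeR and no filter (adjusted p = 0.000143) and with edgeR without 5% CO2 + LPS replicate 3 (adjusted p = 0.0293). PLA2G15 was called with DESeq2 and with no filter in edgeR (adjusted p = 0.0160 and 0.0140), and PAK6 with no filter in edgeR (adjusted p = 0.0387). SELPLG fell at both levels, to 46.2, 43.4 and 32.4 TPM at 5% CO2 and to 23.9, 17.1 and 22.1 TPM at 10%.

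**Figure D5:**
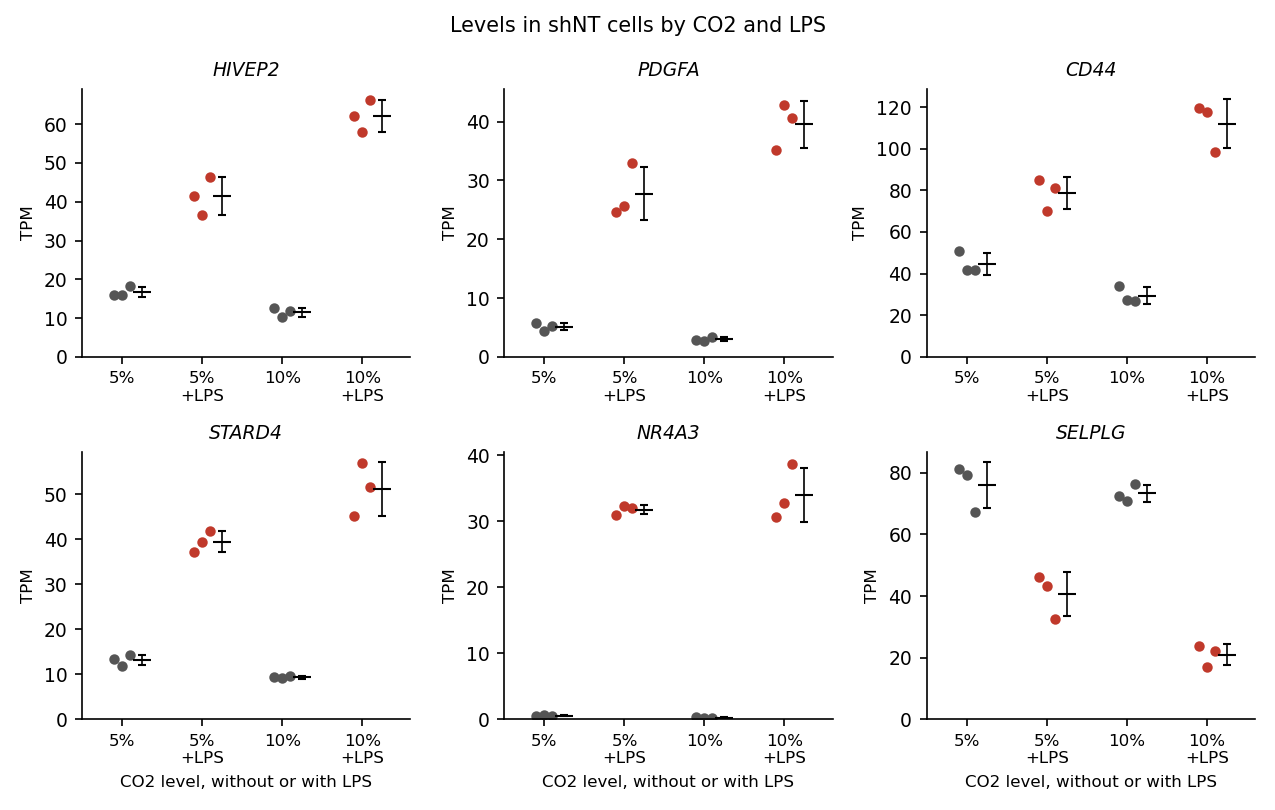
TPM in each of the 3 libraries (points) of shNT cells at 5% CO2, 5% CO2 + LPS, 10% CO2 and 10% CO2 + LPS, with the mean and SD beside them in black, for the 4 genes whose LPS response differed between CO2 levels and for NR4A3 and SELPLG, which were not called by the edgeR test, SELPLG being called with DESeq2. HIVEP2, PDGFA, CD44 and STARD4 are lower at 10% than at 5% CO2 without LPS and higher with it.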

How the data were processed

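RNA of 12 conditions of THP-1 cells was sequenced in 36 libraries, of which 6 made up the main comparison. Polyadenylated RNA was selected. According to the submitters' processing notes and the methods, Trimmomatic 0.36 was used for trimming and STAR 2.5.2b for alignment (GRCh38), and the authors deposited whole-number counts per gene from featureCounts of Subread 1.5.2, without normalization. The annotation release and strand setting are not given in the sources used here, so reads of overlapping or antisense genes cannot be told apart. Symbols were joined by gene ID to a reference annotation, which matched 56410 of 57500 IDs (98.1%), and TPM used the gene lengths in the files.

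Groups came from the titles. Genes kept by filterByExpr (minimum count 10, minimum total 15) over all 36 libraries were tested with edgeR 4.0.16 (R 4.3.3): TMM scaling, robust quasi-likelihood F test, Benjamini-Hochberg adjustment over 17720 genes, and the libraries of each comparison alone in the fit. Standard errors were taken from the log2 fold change and its F statistic. The published methods used the Wald test of DESeq2, and DESeq2 1.42.0 was here an alternative, beside RLE factors, library size only, no filter, a filter within the libraries compared, 1 fit to all libraries, the replicate number as a block, each library left out and an adjusted p of 0.01. The tests were tried on simulated data, where false calls exceeded the threshold in the simulated 5% CO2 comparison and CO2 difference.

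Named genes were the NR4A receptors, the 10 highest and 10 lowest log2 fold changes among called genes with a symbol, a mean CPM of at least 5 and no overlap between groups, the 6 most abundant called genes in each direction at 2-fold or more, the 3 largest changes in each list with a mean TPM of at least 1, and the genes called in the CO2 difference, or the 3 with the smallest p where none was called. Other list members with values were picked with their values in view. The members and lists were chosen with earlier results of these data known. No ID could be matched to the symbol SOD2 of the metabolic list, so that gene is not among those counted for the list. It may stand among the IDs without a symbol. TICAM2, CSF2, CXCL5, CCL7 and AIM2 were among the list members not tested. Some list members are not reported here by name. Promoter and miRNA sequences are those of RefSeq (GRCh38.p14). The numbering of replicates was checked for pairing: at 10% CO2 the correlations of same-numbered libraries were 0.458, 0.480 and 0.222 over the 9394 genes at a mean of at least 10 CPM, and 0.200, 0.158 and 0.0775 over all genes tested. Differently numbered libraries gave -0.507 to 0.0279 and -0.178 to 0.0296. At 5% CO2, over the 9394 genes, same-numbered libraries gave 0.635, 0.0627 and 0.284, and differently numbered ones -0.475 to 0.178. The main fits used no replicate block. The labels do not say that a number marks a shared culture.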

Additional observations from a re-analysis of the deposited data

Results flagged for a closer look

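Of the results above, 4 genes had an LPS response that differed between CO2 levels by the test of the difference itself, an interaction term over the 12 shNT libraries (edgeR's quasi-likelihood test, Benjamini-Hochberg over all genes tested). The LPS log2 fold change at 10% CO2 minus that at 5% CO2 was 1.17 for HIVEP2 (adjusted p = 0.00217), 1.33 for PDGFA, 1.16 for CD44 and 0.91 for STARD4 (adjusted p = 0.0434 for each of the last 3). All 4 rose with LPS at both levels. In the 19 settings run, the difference kept its sign and lay between 1.06 and 1.28 for HIVEP2, 1.22 and 1.5 for PDGFA, 1.06 and 1.29 for CD44, and 0.78 and 0.99 for STARD4. These settings reuse the same libraries. HIVEP2 was called in 18 of the 19, PDGFA in 8, CD44 in 9 and STARD4 in 8. In 1 fit to all 36 libraries none of them was called.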

How the results depend on the processing

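Scaling by library size only moved the median gene to -0.23 on the log2 scale at 10% CO2 and -0.18 at 5%. It gave 1546 genes higher, 5476 lower and 1365 lower by 2-fold or more at 10% CO2, 1218 higher and 4147 lower at 5% CO2, and 2 genes in the CO2 difference. An adjusted p under 0.01 left 1865 genes lower at 10% CO2, 1283 higher and 1201 lower at 5% CO2, and 1 in the difference. The genes with a larger and a smaller response at 10% CO2 numbered 51 and 2 with DESeq2, 74 and 34 with no filter, and 0 and 0 in 1 fit to all 36 libraries (edgeR, 890 at an unadjusted p under 0.05). With the replicate block, 13 were larger, and the LPS response at 10% CO2 had 3462 genes higher and 3699 lower. Leaving out 1 library gave 1 to 35 larger and 0 to 2 smaller differences, with 35 and 2 without 5% CO2 + LPS replicate 3 and 26 and 1 without 10% CO2 replicate 1. The cause was not tested. At 10% CO2, leaving out 1 library gave 2119 to 3009 genes higher and 2152 to 3044 lower. No named gene changed direction in any setting. Over all results and alternatives, the named genes kept their side of the threshold in 1228 cases, lost it in 53 and gained it in 6, and list counts stayed within 1.5 times in 504 cases and moved further in 56. Depth limits the genes under 1 CPM, which were 247 of the 1054 raised and 92 of the 787 lowered by 2-fold or more.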

Other observations

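Long non-coding RNAs took part in the response beside coding genes. Of the genes raised by 2-fold or more at 10% CO2 with a type in the reference annotation, 208 of 1038 (20.0%) were long non-coding RNAs and 739 (71.2%) were protein-coding, against 2330 (13.3%) and 13884 (79.1%) of the 17542 genes tested. Among genes lowered by 2-fold or more, 131 of 774 (16.9%) were long non-coding. These shares are a description, with no test. Raised genes of both kinds include many at low counts, and the strand setting of the counting is not given, so that reads of a coding gene may be counted in a long non-coding gene that overlaps it.

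Protein-coding genes raised by 2-fold or more spanned a median of 28.1 kb from first to last exon, and those raised by 8-fold or more 21.4 kb. Those lowered by 2-fold or more spanned 17.4 kb, against 32.0 kb over the protein-coding genes tested. In the same order, their median exonic lengths in the annotation of the files were 4444, 3464, 4140 and 4971 bases. The quartiles of the span, in that order, were 9681.5 to 84219.5, 7570.5 to 55876.8, 7078 to 45455 and 12814.2 to 77250.8 bases. These ranges overlap, and the values are a description, with no test.

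Among all genes raised by 8-fold or more, the highest mean with LPS was that of an ID that had no symbol in the reference annotation, ENSG00000112096, at 8934 CPM (log2 fold change 7.03). The gene lists were matched by symbol, so this ID could not be counted in any of them. Whether it is the unmatched SOD2 of the metabolic list was not checked here.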
